A study of Homo sapiens with 6 samples.

Results

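AP-1 is a transcription factor built from pairs of basic leucine zipper proteins, and the transcripts of 10 such proteins were followed in DU145 cells, a prostate cancer line grown from a brain metastasis. The 10 genes were chosen by name, with earlier results of these data known. Counts of them beside shares of all genes are therefore descriptive and not an independent test. The genes are FOS, FOSB, FOSL1, FOSL2, JUN, JUNB, JUND, ATF3, BATF3 and MAFF. They are represented by 23 of the 41091 probe sets that carry 1 gene symbol, and by 10 of 19775 genes. After growth in charcoal-stripped serum, cells received HGF at 25 ng/ml, the ligand of the receptor c-MET, and were taken at 2, 8 and 24 hours. Vehicle cultures were taken at the same times. With 1 Affymetrix U133plus2.0 array per condition, 6 in all, no difference within a time point has a replicate error or a p-value.

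JUN and FOS proteins pair through their leucine zippers and bind a short palindromic DNA element. FOS family proteins need a JUN partner, whereas JUN proteins can also pair with each other. Several of these genes are immediate early genes, transcribed without new protein synthesis when a growth factor receptor activates the MAPK cascade. ATF3 and BATF3 are relatives that pair with JUN proteins. MAFF is a small MAF protein, which has no transactivation domain of its own.

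Signals are given after scaling each array to a mean of 150. Ratios were formed with lower signals set to a floor of 30, and where 1 of the arrays was at this floor the ratio is a lower bound. Probe sets differ in how they hybridise, so a signal is compared only with that of the same probe set in another array. Of the 23 probe sets, 12 exceeded the floor in all 6 arrays, 20 in 1 or more, and 3 in none. The arrays read RNA of whole cultures, so more expressing cells and more transcript per cell cannot be told apart.

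The arrays differed in ways not tied to these genes. The signal at the 3' end of ACTB over that at its 5' end, a measure of RNA integrity, lay between 1.13 and 1.71 and was highest at 24 hours. DapX-3, a transcript added before labelling, read 701 in the vehicle array of 8 hours and between 1152 and 2322 in the others. The part of these differences in the ratios below was not tested. The epithelial markers KRT8, KRT18, KRT19, EPCAM and CDH1 were above the floor in all 6 arrays. The leukocyte, endothelial and erythroid markers PTPRC, CD3E, PECAM1, VWF and HBB were at the floor in every array. COL1A1, a fibroblast collagen, was above it in all 6, with a highest signal of 97.3.

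Promoter sequence was at hand for 8 of the 10 genes, as 10 windows of 250 bases before to 50 bases after a RefSeq start site (GRCh38.p14). Stretches of 50 bases are shown for 7 of these genes, to set the elements they hold side by side, with matches to short elements in capitals. The capitals mark TGACG and TATAAA in FOS and FOSB, TATAAA in JUNB, TGACATCA in JUN and ATF3, and TGACGTCA in MAFF and JUND.
FOS (chr14:75278758-75278807, plus strand): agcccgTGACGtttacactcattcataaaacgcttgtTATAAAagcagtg
FOSB (chr19:45467926-45467975, plus strand): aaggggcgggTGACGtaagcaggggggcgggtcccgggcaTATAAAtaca
JUNB (chr19:12791416-12791465, plus strand): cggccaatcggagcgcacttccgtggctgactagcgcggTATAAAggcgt
JUN (chr1:58784088-58784137, minus strand): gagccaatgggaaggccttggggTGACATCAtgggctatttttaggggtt
MAFF (chr22:38201914-38201963, plus strand): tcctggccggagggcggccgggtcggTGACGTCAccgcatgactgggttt
ATF3 (chr1:212565267-212565316, plus strand): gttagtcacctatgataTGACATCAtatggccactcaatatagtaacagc
JUND (chr19:18281788-18281837, minus strand): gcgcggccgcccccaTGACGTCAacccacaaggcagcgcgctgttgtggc

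TGACGTCA is the element bound by CREB and ATF proteins, and TGACATCA is a related form known from the JUN promoter. Both strands were searched. TGACGTCA was found in 2 of the 10 windows, against 1.85% of all 35116 windows in the table, and TGACATCA in 2, against 2.61%. The TGACATCA match in JUN was known beforehand, so only that in ATF3 was open. TGACG, which lies within TGACGTCA, was in 7 windows against 24.6%, and TATAAA in 4 against 11.5%. Of these 4 TATAAA matches, 1 began 230 bases before a second start site of ATF3. TGACTCA, the AP-1 element itself, was found only in the window of FOSL2, at bases 5 to 11 after its start site, and is held by 4.95% of all windows. The CArG box bound by SRF was in 0 of the 10 windows, against 1.29% of all. Sequence farther upstream than these windows was not searched. The 0 therefore does not show that FOS or another of the genes lacks a CArG box. A match describes the letters and is not a binding site.

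In FOS and FOSB the TGACG match and the TATAAA match lay in the same order, at bases 64 and 33 before the start in FOS and 60 and 30 before it in FOSB. In JUN the TGACATCA match began 67 bases before the start, and in MAFF the TGACGTCA match began 54 bases before it. In ATF3 the match lay farther out, at 123 bases, and in JUND at 200 bases. MAFF and ATF3 each have a second start site in the table, whose windows hold neither TGACATCA nor TGACGTCA.

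A gene was called when at least 1 of its probe sets differed 2-fold and the mean over its probe sets differed 1.41-fold in the same direction. The study set this rule for 24 hours, and it was applied here to the other times too. At 2 hours 7 of the 10 genes were called higher with HGF, FOS, FOSL1, FOSL2, JUN, JUNB, ATF3 and MAFF, while over all 19775 genes the rule called 0.42% as higher. At 8 hours 5 were called higher, FOSL1, JUN, JUNB, BATF3 and MAFF, against 2.69% of all genes. At 24 hours JUN was the 1 gene called, against 1.03%. Among genes above the floor in the vehicle array of that time, the shares called higher at 2, 8 and 24 hours were 0.764%, 5.04% and 1.87%. FOS and FOSB were under the floor in every vehicle array and are outside this set. The FOS call at 2 hours therefore does not count beside the first of these shares.

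None of the 10 was called lower at any time, where the rule took 0.0556%, 7.94% and 0.556% of all genes at 2, 8 and 24 hours. Over the 10 genes the median log2 ratio was 0.79, 0.62 and 0.17 at 2, 8 and 24 hours, where the median over all genes was 0 at each time. Many of all genes have a ratio of 0 through the floor. Over genes above the floor in either array the median was -0.04, -0.04 and 0.02. Between vehicle arrays 0 of the 10 were called in any of 3 comparisons. FOS and FOSB were under the floor in all 3 vehicle arrays. Neither could therefore be called between these arrays, nor be called lower with HGF at any time. Between vehicle arrays the rule took 0.48% of all genes for 8 over 2 hours, 1.3% for 24 over 2 hours and 3.22% for 24 over 8 hours. The direction of calls over all genes at 8 hours depends on scaling, with 531 genes higher and 1571 lower as scaled here. Quantile normalization gave 1086 higher and 999 lower, and centring the ratios gave 933 higher and 1095 lower.

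**Figure D1:**
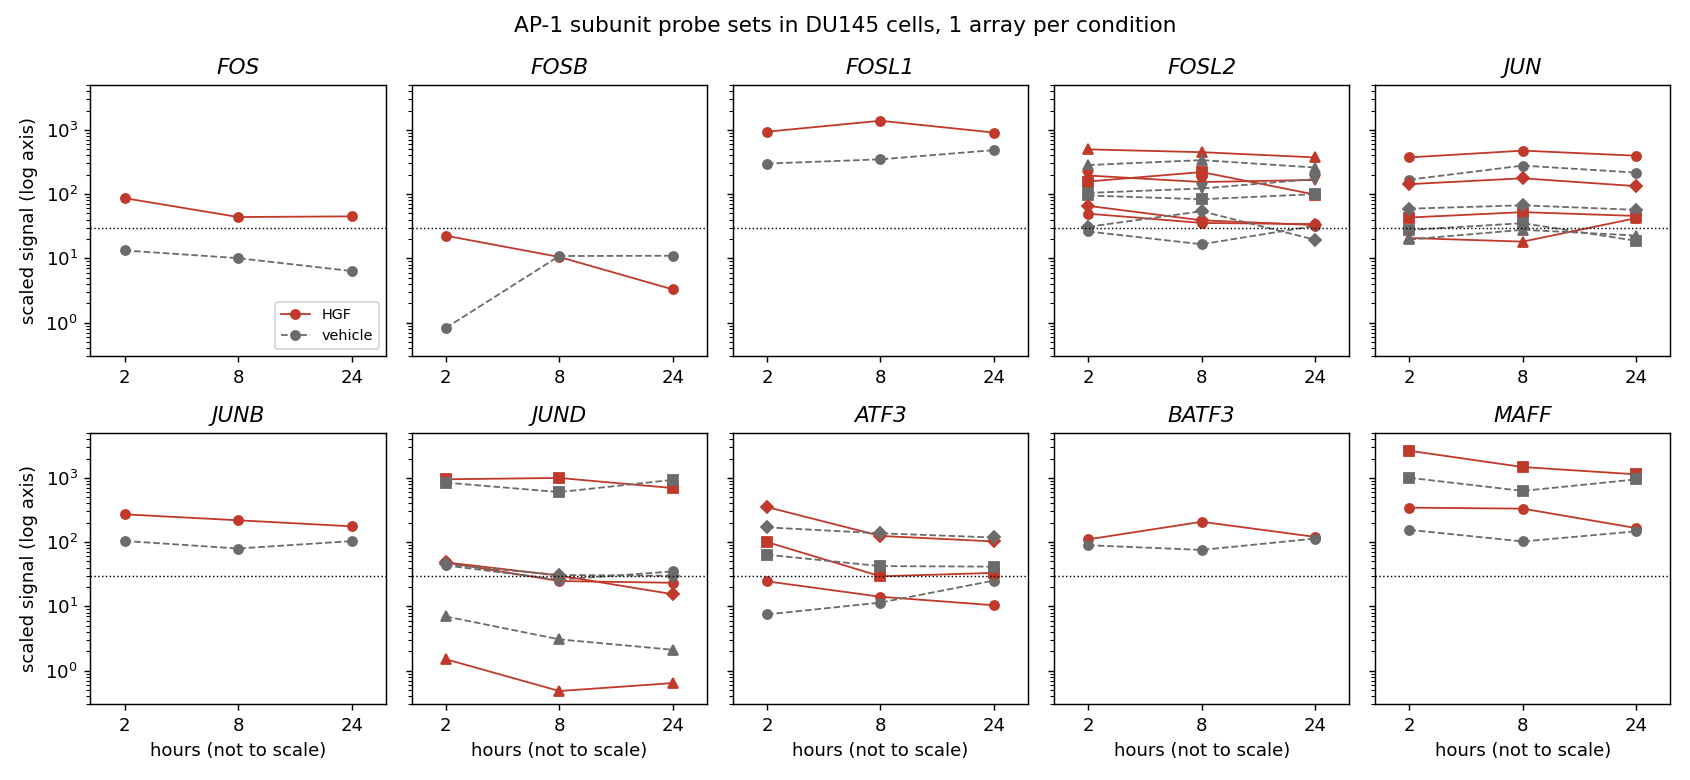
Signal after scaling, on a log axis (y axis), of the 23 probe sets of the 10 AP-1 subunit genes by hours of treatment (x axis, evenly spaced) with HGF (red, solid) or vehicle (grey, dashed). Each point is 1 array, each symbol within a panel is 1 probe set, with the floor of 30 dotted. FOSL1 reads 936, 1385 and 907 with HGF, above each of the 3 vehicle signals.

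FOSL1 encodes FRA-1, a FOS family protein without a transactivation domain that is known from invasive carcinoma cells. Its 1 probe set read 936, 1385 and 907 with HGF at 2, 8 and 24 hours. With vehicle it read 299, 347 and 484 at the same times. The 3 HGF signals all lay above the 3 vehicle signals. FOSL1 was 3.13-fold higher with HGF at 2 hours, 3.99-fold at 8 hours and 1.87-fold at 24 hours, where it was not called. At 8 hours its ratio ranked 9 among 19775 genes, and at 2 hours it ranked 12. The vehicle signal itself was higher at 24 than at 2 hours by a log2 ratio of 0.70. Set against the other 2 vehicle arrays, those of 2 and 8 hours, the log2 ratio at 24 hours was 1.49 in place of 0.91. Against the vehicle arrays of 8 and 24 hours, the log2 ratio at 2 hours was 1.19 in place of 1.65.

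FOS, the founding member of the family and a classic immediate early gene, has 1 probe set here. It read 86.5, 44.0 and 45.0 with HGF and 13.3, 10.1 and 6.34 with vehicle at 2, 8 and 24 hours. It thus passed the floor in each HGF array and in no vehicle array. The ratio was at least 2.88-fold at 2 hours, at least 1.47-fold at 8 hours and at least 1.50-fold at 24 hours. These bounds follow from the floor, so they set no order between the 3 times. Within the HGF arrays the signal of 8 hours was lower than that of 2 hours by a log2 ratio of -0.98, with both above the floor.

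FOSB, a close relative of FOS that is also induced by growth factors, stayed under the floor in all 6 arrays. Its probe set read 22.5, 10.5 and 3.28 with HGF and 0.825, 10.9 and 11.0 with vehicle. No ratio is given for it.

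FOSL2, which encodes FRA-2, has 5 probe sets. Its brightest read 497, 449 and 372 with HGF and 283, 338 and 259 with vehicle, without overlap between the groups. All 5 were higher with HGF at 2 hours, by 1.65-fold to 2.12-fold, and the smallest 2 of these include a bound. They disagreed later. At 8 hours 1 probe set was 2.65-fold higher, at 220.2 with HGF and 83.2 with vehicle, while another was lower by a log2 ratio of -0.47. At 24 hours the 5 log2 ratios lay between -0.05 and 0.52. The mean over the probe sets was 1.80-fold, 1.31-fold and 1.10-fold at 2, 8 and 24 hours.

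JUN, the central partner of FOS proteins, was the gene called at all 3 times. Of its 4 probe sets the brightest read 373, 475 and 396 with HGF and 168, 278 and 216 with vehicle. The next brightest read 143, 176 and 132.9 with HGF and 59.3, 66.9 and 56.8 with vehicle. In both, the lowest HGF signal exceeded the highest vehicle signal. On the next brightest the ratio was 2.41-fold, 2.63-fold and 2.34-fold at 2, 8 and 24 hours. The mean over all 4 was 1.67-fold, 1.61-fold and 1.74-fold, and includes 1 probe set that passed the floor only with HGF at 24 hours. The 3 probe sets that carry the ratio have names ending in _s_at or _x_at, which mark probes shared by several transcripts or open to cross-hybridisation. Without such probe sets JUN was called at none of the 3 times. The 1 probe set then left was at the floor in both arrays at 2 and 8 hours, so no call was possible there.

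JUNB, a JUN relative that can restrain JUN in some settings, has 1 probe set. It read 271, 219 and 176 with HGF and 104, 79.6 and 104 with vehicle. Every HGF signal lay above every vehicle signal, and the HGF signals were lower at each later time. With HGF it was thus 2.60-fold, 2.75-fold and 1.70-fold higher at 2, 8 and 24 hours. The vehicle array of 8 hours was the lowest of its kind, and against the other 2 vehicle arrays the log2 ratio at 8 hours was 1.07 in place of 1.46.

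JUND, the JUN family member that is expressed widely in resting cells, was not called at any time. Its brightest probe set read 951, 998 and 694 with HGF and 843, 601 and 932 with vehicle, and the groups overlapped. Its log2 ratio on that probe set was 0.17, 0.73 and -0.43 at 2, 8 and 24 hours. The mean over its 4 probe sets was 0.11, 0.18 and -0.16, and 1 of the 4 stayed under the floor throughout.

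**Figure D2:**
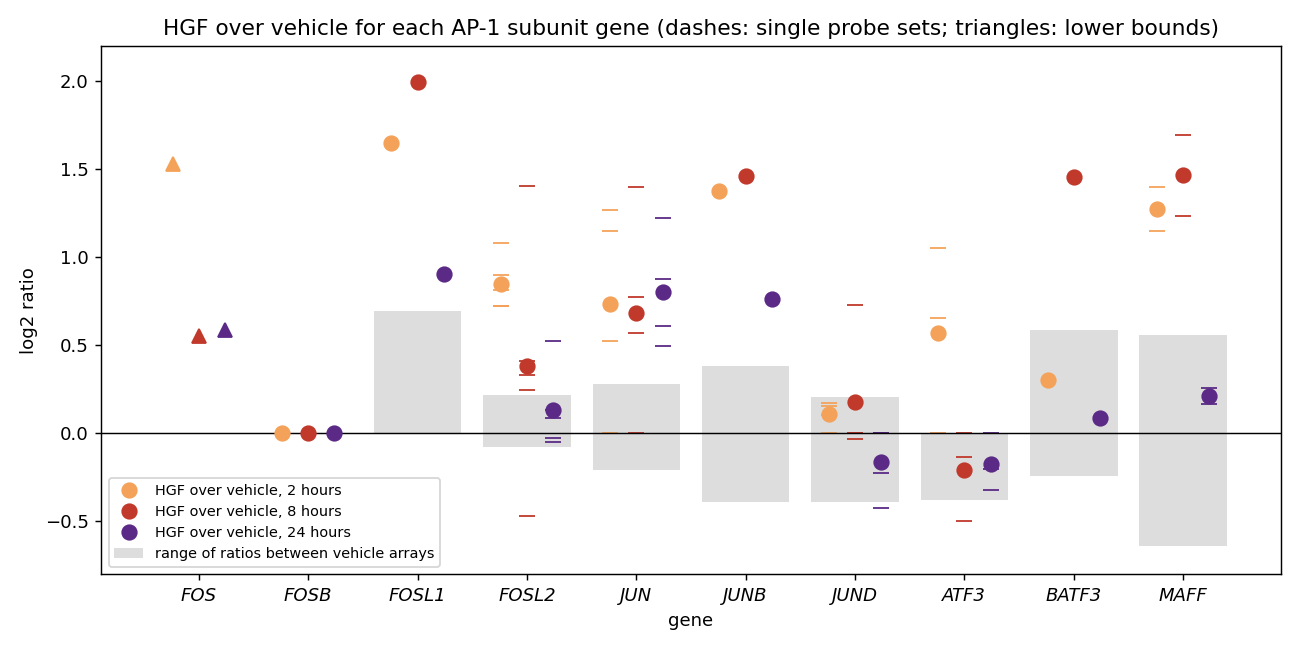
HGF over vehicle as a log2 ratio (y axis) for the 10 genes (x axis) at 2 hours (orange), 8 hours (red) and 24 hours (purple), 1 pair of arrays each. Circles are means over probe sets, triangles are lower bounds, dashes are single probe sets, and grey bars span 0 and the ratios between the 3 vehicle arrays. FOSB, at the floor in all arrays, is drawn at 0. FOSL1 reaches 2.00 at 8 hours, ATF3 is at 0.57 at 2 hours and -0.21 at 8 hours, and BATF3 reaches 1.45 at 8 hours only.

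ATF3, a stress-induced factor that represses or activates depending on its partner, was called at 2 hours only. Its brightest probe set read 352, 125 and 102 with HGF and 169.8, 137 and 118 with vehicle. The HGF signal was thus the highest of all at 2 hours and below its vehicle signal at 8 and 24 hours. The next probe set read 100.5, 29.4 and 33.2 with HGF and 63.8, 42.3 and 41.5 with vehicle, with the same order. The mean log2 ratio over 3 probe sets was 0.57, -0.21 and -0.18 at 2, 8 and 24 hours, with the remaining probe set at the floor in all arrays. Within the HGF arrays the gene was lower at 8 than at 2 hours by a log2 ratio of -1.08, while within the vehicle arrays this ratio was -0.30.

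BATF3, a factor known from dendritic cell development, has 1 probe set. It read 110.4, 208 and 121 with HGF and 89.5, 75.7 and 114 with vehicle. The HGF signal of 8 hours stood above the other 5. BATF3 was 2.74-fold higher at 8 hours, against 1.23-fold at 2 hours and 1.06-fold at 24 hours. The vehicle arrays differed among themselves by up to 0.58 on the log2 scale, and against the vehicle arrays of 2 and 24 hours the log2 ratio at 8 hours was 1.04 in place of 1.45.

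MAFF, the small MAF protein, has 2 probe sets that agreed. The brighter read 2645, 1474 and 1134 with HGF and 1004, 627 and 948 with vehicle. The other read 344, 332 and 165 with HGF and 155, 102 and 147 with vehicle. On both, the lowest HGF signal exceeded the highest vehicle signal, although the gap at 24 hours was small. The mean ratio at 2, 8 and 24 hours was 2.42-fold, 2.76-fold and 1.16-fold. The vehicle signal was lowest at 8 hours, and against the other 2 vehicle arrays the log2 ratio at 8 hours was 0.86 in place of 1.47.

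The largest ratio came at 2 hours for FOSL2 and ATF3 and at 8 hours for FOSL1 and BATF3, and it did so too against the mean of the 3 vehicle arrays. For JUNB, MAFF and JUND it came at 8 hours against the vehicle array of the same time, but at 2 hours against that mean. There the log2 ratios at 2 and 8 hours were 1.51 and 1.20 for JUNB, 1.51 and 1.06 for MAFF, and 0.30 and -0.02 for JUND. For JUN it came at 24 hours against the vehicle array of the same time and at 8 hours against that mean. The ratios of FOS are bounds and FOSB has none, so these 2 genes have no place in this order. The means of JUN, FOSL2, ATF3 and JUND include bounds, so their place is less certain. On brightest probe sets, which held no bound, FOSL2 and ATF3 were largest at 2 hours and JUND at 8 hours. Another FOSL2 probe set without bounds was largest at 8 hours, at 1.40 against 0.72 at 2 hours. The log2 ratios of JUN were 0.74, 0.69 and 0.80 at 2, 8 and 24 hours, where its vehicle values spanned 0.28, and on its brightest probe set they were 1.15, 0.77 and 0.88. Those of MAFF were 1.27, 1.47 and 0.21, where its vehicle values spanned 0.64. No difference between times could be tested with 1 array per condition.

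For the effect of HGF shared by the 3 times, a limma model with time as a block compared 3 HGF with 3 vehicle arrays. It covered the 9982 genes that passed the floor in 3 arrays or more. FOSB did not pass that filter, which leaves 9 of the 10 genes. FOS passed it through its HGF arrays alone, so its difference in the fit was bound to be positive. The replicates of this model are the times, so a ratio that changes with time counts as error. With limma 0 of the 9 genes passed an adjusted p of 0.05, and 0% of all genes did. The adjusted p of the 9 genes lay between 0.698 and 0.968, and the smallest adjusted p of any gene was 0.161. Over all genes 4 passed in limma without the block and 3 with the brightest probe set per gene, none of them among the 9.

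Of the 8 genes with a probe set above the floor in all 6 arrays, which leaves out FOS, 4 were higher at an unadjusted p of 0.05 in limma, FOSL1, JUN, JUNB and MAFF. The same held for 2.53% of the 8897 genes with such a probe set. FOSL1 had a mean log2 ratio of 1.52 with a standard error of 0.24 and was higher in 3 of 3 pairs of arrays. JUNB had 1.20 with a standard error of 0.19, and JUN 0.74 with 0.13, both also higher in 3 of 3 pairs. For JUND the mean was 0.04, with a 95% interval between -0.33 and 0.41. For ATF3 it was 0.06, with an interval between -0.47 and 0.59. These intervals leave room for a change in either direction.

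**Figure D3:**
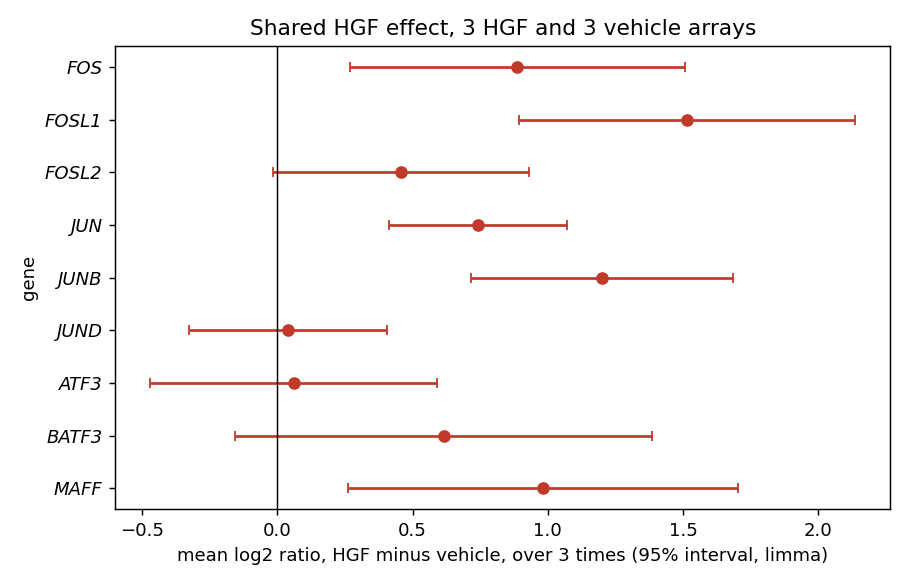
Mean log2 ratio of HGF over vehicle across the 3 times (x axis) with its 95% interval from limma, for the 9 genes fitted (y axis), from 3 HGF and 3 vehicle arrays with time as a block. FOS is at the floor in each vehicle array, which fixes its sign. The intervals of FOSL1, JUN, JUNB and MAFF lie above 0 and those of FOSL2, JUND, ATF3 and BATF3 include it. FOSL1 has the highest mean, 1.52.

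For 5 of these 8 genes, FOSL1, FOSL2, JUN, JUNB and MAFF, each of the 3 HGF values lay above each of the 3 vehicle values, against 5.35% of the 8897 genes. These values are means over the probe sets of a gene, and not every probe set of FOSL2 and JUN showed this order. For FOSL2 the gap was small, with a lowest HGF value of 6.53 and a highest vehicle value of 6.48 on the log2 scale. An exact two-sided permutation test of 3 against 3 arrays cannot give a p below 0.1, and no such test was used for a call.

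The profiles of the genes over the 6 arrays were set against those of 8897 genes with a probe set above the floor throughout, by the root mean square difference of centred log2 values. The 6 arrays share times and treatments, so likeness describes the arrays and no more. Near genes were picked by these same values, so a shared time of the largest ratio follows in large part from that choice. Closest to FOSL1 was DUSP5, which encodes a MAPK phosphatase, at 0.20, where the profile of FOSL1 itself has a root mean square of 0.81. ZFP36, an mRNA decay factor, followed at 0.22 and VPS37B at 0.23. The log2 ratios of DUSP5 were 1.20, 1.75 and 0.66 at 2, 8 and 24 hours, with the largest at 8 hours as for FOSL1.

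JUNB was closest to KDM6B, a histone demethylase (0.15), IER5 (0.17) and SERTAD1 (0.19). MAFF was closest to SERTAD1 (0.17), JUNB (0.20) and BHLHE40 (0.20), so JUNB was the 1 gene of the family among the 3 nearest of another. FOSL2 was closest to MYC (0.08), whose log2 ratios were 0.80, 0.46 and 0.17, and then to ARRDC2 and DGKD. JUN was closest to TICAM1, to HBEGF, which encodes a ligand of the EGF receptor, and to LRRC8A, each at 0.08. BATF3 was closest to TMEM120A, FAM110A and MRGBP, all with their largest ratio at 8 hours. The genes nearest to JUND were CCDC32, CYTH1 and PLAGL2, and those nearest to ATF3 were PECR, TRAPPC10 and NANP.

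Other genes of the pathway were described from lists chosen by role, also with earlier results of these data known. Their counts beside shares of all genes are likewise descriptive. Of 12 further basic leucine zipper relatives 9 have a probe set with 1 symbol, and 0 were called higher at any time. ATF2, a JUN partner that binds CRE elements, was called lower at 8 hours, with 69.4 with HGF and 173 with vehicle on its brightest probe set. That is 1 of 9, beside the 7.94% of all genes called lower at 8 hours as scaled here. The medians of these 9 were 0 at 2 and 8 hours and 0.06 at 24 hours on the log2 scale. Only 6 of the 9 had a signal above the floor in some array, and the ratios of the rest are 0 through the floor. The medians of the 6 were 0.09, -0.05 and 0.23 at 2, 8 and 24 hours.

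SRF and the ternary complex factors act on the FOS promoter, and 7 of 7 genes of that list have a probe set. At 2 hours 0 were called. At 24 hours ELK3, a ternary complex factor that can repress SRF targets, was called higher, with 1292 with HGF and 413 with vehicle, beside 1.03% of all genes. At 8 hours MRTFA, a coactivator of SRF, was called higher (log2 ratio 0.52) and CREB1 lower (-1.01). The medians of the 7 were -0.04, 0.05 and 0.13 at 2, 8 and 24 hours. Of 10 kinases that act on AP-1 proteins or their regulators 8 have a probe set, and 0 were called at 2 or 24 hours. At 8 hours RPS6KA1 was called higher (1.07) and RPS6KA3 lower (-1.05), both of which encode RSK kinases downstream of ERK. In each of these lists 1 gene was called higher and 1 lower at 8 hours, where 2.69% and 7.94% of all genes were. The median of the 8 kinases was -0.08, -0.36 and -0.09 at the 3 times.

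Of 20 textbook AP-1 target genes 19 have a probe set, 13 of them with a signal above the floor in some array. At 2 hours 3 of the 19 were called higher, at 8 hours 6 and at 24 hours 7, beside 0.42%, 2.69% and 1.03% of all genes. None was called lower, beside 0.0556%, 7.94% and 0.556% of all genes. The median over all 19 was 0.07, 0.28 and 0.33 on the log2 scale at 2, 8 and 24 hours. Over the 13 above the floor in some array it was 0.33, 0.67 and 0.74, and the ratios of the rest are 0 through the floor. No difference between the times was tested.

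The targets called at all 3 times were PLAUR, which encodes the urokinase receptor, the chemokine CXCL8, and HBEGF. PLAUR read 1286, 3059.7 and 2340.2 with HGF on its brightest probe set and 581, 684 and 787 with vehicle. HBEGF read 876, 838 and 867 with HGF and 299, 390.0 and 333 with vehicle on its brightest. For both genes all HGF signals exceeded all vehicle signals on that probe set. TIMP1, an inhibitor of metalloproteinases, and ITGA5, an integrin chain that binds fibronectin, were called at 8 and 24 hours. ITGA5 read 144, 335 and 429 with HGF and 142, 131 and 171 with vehicle, so its signals differed little at 2 hours. PLAU, which encodes urokinase, was called at 8 hours. MMP1, the interstitial collagenase, and CD44 were called at 24 hours only, and MMP1 read 30.5, 56.7 and 1065 with HGF and 26.3, 55.1 and 39.5 with vehicle. MMP3, MMP10, MMP13, SPP1, IVL and LORICRIN, targets known from other tissues, were at the floor in every array.

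**Figure D4:**
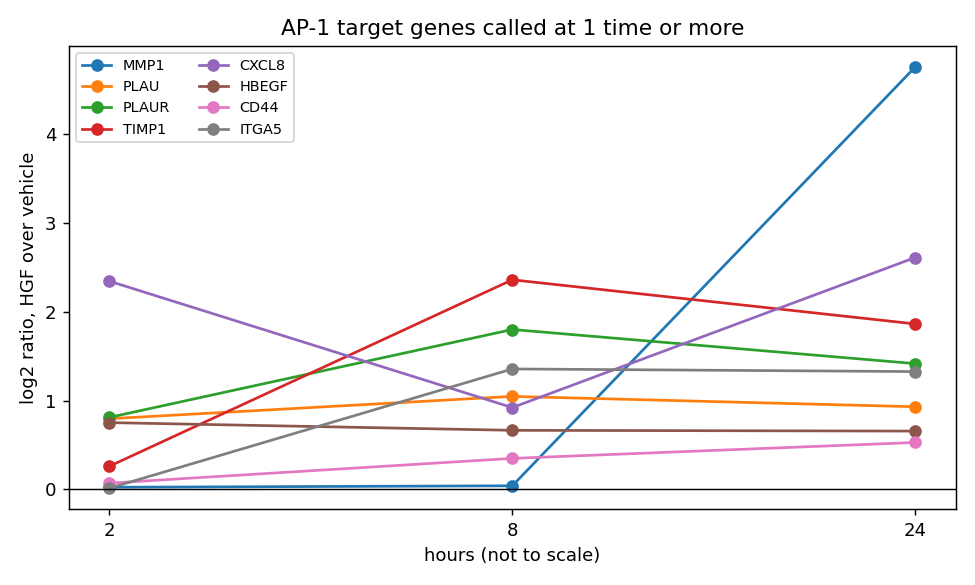
HGF over vehicle as a log2 ratio (y axis) by hours of treatment (x axis, evenly spaced) for the 8 AP-1 target genes called at 1 time or more, 1 pair of arrays per time. Each point is the mean over the probe sets of a gene. MMP1 is at 0.04 at 8 hours and 4.75 at 24 hours, whereas HBEGF stays between 0.66 and 0.75. The brightest probe set of HBEGF alone differed more. It read 876, 838 and 867 with HGF and 299, 390.0 and 333 with vehicle at 2, 8 and 24 hours.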

How the data were processed

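Total RNA of DU145 cultures was profiled on Affymetrix U133plus2.0 arrays, 6 in all. The authors deposited linear intensity values for 54675 probe sets, and the labels name MAS5, with its version not given in the sources used here. RMA quantile normalization, an array mean of 150 and a floor of 30 are also named in the methods. None of these is visible in the deposited values, whose array means ran from 149.1 to 205.4. Scaling to 150 and the floor were therefore applied here. Probe sets were named from the platform annotation, of which 41097 have 1 symbol, 1801 several and 11777 are not listed. Control probe sets were dropped, 6 of which have a symbol.

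The log2 ratio was averaged over the probe sets of a gene. limma 3.58.1 in R 4.3.3 was used for the shared effect, with Benjamini-Hochberg adjustment over 9982 genes. Python 3.11.15, numpy 2.4.6, pandas 2.3.3 and matplotlib 3.10.9 were used. The steps were tested on simulated data. Text named the 10 members, list genes called at any time and the 3 nearest profiles. Members and lists were chosen with earlier results of these data known. Precision is limited by having 6 arrays. Alternatives covered floor, scaling, reference array, probe set choice, thresholds and the limma model.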

Additional observations from a re-analysis of the deposited data

Results flagged for a closer look

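ATF3 and JUND had ratios of opposite direction at different times. For ATF3 the log2 ratio at 2 hours exceeded that at 8 hours by 0.78 and that at 24 hours by 0.74. For JUND the ratio at 2 hours exceeded that at 24 hours by 0.27, and that at 8 hours exceeded it by 0.34. Each ratio comes from 1 pair of arrays, so these differences were not tested. The vehicle values of ATF3 had a standard deviation of 0.20 on the log2 scale and those of JUND of 0.20 (n = 3 arrays of different times).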

How the results depend on the processing

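The number of genes called higher at 2 hours was 7 and fell to 4 without _s_at and _x_at probe sets (FOS, FOSL1, JUNB and MAFF) and to 1 at a 3-fold threshold (FOSL1). At 8 hours it was 5, and 2 at 3-fold (FOSL1 and MAFF). At 24 hours JUN was called, and the number was 2 with a floor of 1 (FOS and JUN), with the mean of all 3 vehicle arrays as reference and with the mean of the other 2 vehicle arrays (FOSL1 and JUN each), and 0 with the brightest probe set, without _s_at and _x_at probe sets or at 3-fold. The reference of the other 2 vehicle arrays was chosen after seeing the data. With a floor of 1, 3 genes were called lower at 24 hours and 5 calls arose between vehicle arrays, from FOS, FOSB and JUND. Under the other alternatives these numbers stayed within 1.5 times the value given and calls between vehicle arrays stayed at 0. Of 294 single ratios recomputed, 0 called ratios changed sign and 68 moved by more than the standard deviation of the vehicle values. The log2 ratio of FOS at 2 hours was 0.53 with a floor of 60, and that of JUND, 0.11 as given, was -0.45 with a floor of 1. In limma 0 of the AP-1 genes passed the adjusted threshold in any of 9 alternatives. With FOS counted, 5 were higher at the unadjusted one, 3 without the filter on low genes and 4 to 7 when a time point was left out.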
